A study of Arabidopsis thaliana with 18 samples.

Results

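The 9 Arabidopsis thaliana genes described here build, position or regulate the barriers of the root endodermis. They were taken by gene identifier: CASP1 (AT2G36100), CASP2 (AT3G11550), CASP4 (AT5G06200) and CASP5 (AT5G15290), MYB36 (AT5G57620), ESB1 (AT2G28670), SGN3 (AT4G20140, GSO1 in the reference), GPAT5 (AT3G11430) and CYP86A1 (AT5G58860). All 9 were among the 27416 genes counted, and all 9 were among the 20615 genes that passed the filter on low counts. PolyA RNA of whole seedlings was sequenced in 18 libraries, 3 in each of 6 groups, with 16347549 to 24848852 counts in genes per library. The seedlings were 7 days old and were wild type (WT), labelled ire1b, or labelled ire1a ire1b (ire1a1b here). Each genotype was kept for 6 h in liquid medium with DMSO, the solvent control, or with TM at 5 µg/mL. TM is read here as tunicamycin, an inhibitor of N-glycosylation that causes unfolded proteins to collect in the endoplasmic reticulum (ER), and IRE1 is a sensor of that stress. The sources used here do not give the mutant alleles. They also do not say whether replicates were separate cultures, and the spread that the p-values rest on may therefore be technical.

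The Casparian strip is a ring of lignin in the walls between endodermal cells that stops solutes from passing through the wall space into the root's vascular core. CASP proteins gather in the plasma membrane, mark the ring's position and recruit the enzymes that build it, MYB36 switches on the CASP genes and several of those enzymes, and the receptor kinase SGN3 senses peptides from the vascular core while the ring is incomplete. Older endodermal cells add suberin, a polyester of fatty acids and phenolics, for which CYP86A1 hydroxylates fatty acids at their end and GPAT5 joins acyl chains to glycerol.

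In whole seedlings the libraries hold RNA of every organ, so fewer endodermal cells and less RNA per cell cannot be told apart. IRE1A stood at 85.3 ± 5.67 CPM (a gene's counts scaled to the library's total; SD, n = 6) in WT and at 23.0 ± 1.73 in the libraries labelled ire1a1b, while IRE1B, at 33.3 ± 3.38 in WT, was not lower in the libraries labelled ire1b (39.6 ± 4.06) or ire1a1b (39.3 ± 4.29). TM changed BIP3, an ER chaperone gene, by log2 10.09 ± 0.37 in WT, 7.94 ± 0.34 in ire1b and 6.31 ± 0.34 in ire1a1b (edgeR quasi-likelihood test, adjusted p = 1.6e-11, 7.6e-11 and 2.7e-09). With DMSO it was higher in ire1b than in WT (11.3 ± 5.22 against 2.63 ± 0.934 CPM; log2 2.11 ± 0.3, adjusted p = 0.017), and with TM it stood at 2885.4 ± 154.6 CPM in WT, 2809.7 ± 161.3 in ire1b and 101.9 ± 6.22 in ire1a1b. TM changed NAC103, a transcription factor gene of the same response, by log2 6.08 ± 0.15, 6.32 ± 0.15 and 0.35 ± 0.18 (1.6e-13, 1.7e-13 and 0.25, the last not passing). The endodermal regulators SHR and SCR were present in every library, SHR at 17.2 ± 1.69 and SCR at 41.5 ± 2.71 CPM (SD, n = 3) in WT with DMSO. The replicate 1 libraries of WT and ire1a1b, 4 in all, stood apart from the other 14 on the second principal component, at 31.0 to 47.5 against -27.1 to 3.5.

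The promoters of CASP1, CASP2 and CASP4 are shown because these 3 CASP genes fell with TM in all 3 genotypes. They are the 250 bases before and the first 25 bases of each gene, on the gene's strand, from RefSeq's TAIR10.1: chr2:15160775-15161049 on the minus strand, chr3:3637928-3638202 on the plus strand and chr5:1876884-1877158 on the plus strand. Capitals mark TTGAC, the core bound by WRKY factors, on either strand (GTCAA on the printed strand), and TCATCG, an element described in the promoter of the ER stress gene NAC103.
CASP1: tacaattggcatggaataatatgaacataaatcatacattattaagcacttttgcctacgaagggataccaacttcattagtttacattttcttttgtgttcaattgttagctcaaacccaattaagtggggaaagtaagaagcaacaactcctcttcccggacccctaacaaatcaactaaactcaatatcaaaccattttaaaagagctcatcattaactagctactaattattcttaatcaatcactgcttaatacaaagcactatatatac
CASP2: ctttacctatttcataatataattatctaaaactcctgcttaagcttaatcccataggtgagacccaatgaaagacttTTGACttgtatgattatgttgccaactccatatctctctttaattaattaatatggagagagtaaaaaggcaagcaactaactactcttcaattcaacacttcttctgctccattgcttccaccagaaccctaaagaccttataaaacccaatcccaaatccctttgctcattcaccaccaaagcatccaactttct
CASP4: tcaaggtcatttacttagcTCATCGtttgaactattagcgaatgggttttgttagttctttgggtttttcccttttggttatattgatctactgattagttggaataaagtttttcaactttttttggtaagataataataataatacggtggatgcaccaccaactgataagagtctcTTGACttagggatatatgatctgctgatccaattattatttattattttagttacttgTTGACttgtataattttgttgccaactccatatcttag
CASP2 and CASP4 shared a stretch of 35 bases of which 33 were identical, from -172 to -138 in CASP2 and from -13 to 22 in CASP4, counted from the gene's first base. The stretches are printed with identical bases in capitals.
CASP2: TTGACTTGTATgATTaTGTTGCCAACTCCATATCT
CASP4: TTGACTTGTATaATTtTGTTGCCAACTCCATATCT
Over windows of 300 bases, from 250 before to 50 after each gene start, this was the best ungapped match among the 36 pairs of the 9 genes, and the next best pairs, CASP1 with CASP5 and CASP4 with SGN3, each matched at 29 of 43 bases. The longest identical run of CASP2 and CASP4, TGTTGCCAACTCCATATCT, occurred in 2 of 27443 promoters of 300 bases (0.00729%), those of CASP2 and CASP4. The run was taken from these 2 promoters, so both matches were fixed in advance. Its share therefore does not measure how unusual the match is. The coding sequences of CASP2 and CASP4 were also alike, at 80.6% identity. Elements of ER stress genes were searched in the same windows of 300 bases, on both strands. The ER stress response element, CCAAT and CACG with 10 bases of any kind between them, was found in 0 of the 9 genes and 0.849% of all promoters, and TGACGTGG in 0 of the 9 and 1.51% of all promoters. TCATCG was found in CASP4 (8.63% of all promoters), ACGTG in ESB1 and GPAT5 (26.7%), and TTGAC in CASP2, CASP4, ESB1 and SGN3 (50.5%). Of the AC elements bound by MYB factors of lignin genes, ACCTAAC was found in CASP5 (2.88% of all promoters), and ACCTACC (1.38%) and ACCAACC (3.29%) in none of the 9.

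With TM, CASP1, CASP2, CASP4 and SGN3 fell in all 3 genotypes, MYB36 fell in WT, CYP86A1 fell in WT and ire1b, and CASP5, ESB1 and GPAT5 passed the test in none in the fit without a replicate block. In WT 6 of the 9 genes fell and none rose, where 5.77% of all tested genes fell, 6.13% rose and 11.9% passed in either direction (edgeR's quasi-likelihood test with Benjamini-Hochberg adjustment, threshold 0.05). In ire1b 5 fell and none rose, where 11.6% of tested genes fell, 10.9% rose and 22.5% passed. In ire1a1b 4 fell and none rose, where 6.59% of tested genes fell, 8.27% rose and 14.9% passed. The median log2 change of the 9 genes was -0.7 in WT, -0.79 in ire1b and -0.5 in ire1a1b, against -0.02, -0.01 and -0.02 over all tested genes. The TM libraries lay below the DMSO libraries without overlap for 8 genes in WT (all but CASP5; 11.4% of tested genes), 8 in ire1b (all but ESB1; 23.2%) and 6 in ire1a1b (all but ESB1, GPAT5 and CYP86A1; 12.7%). The WT count depended on single libraries: it was 4 without DMSO replicate 2, 3 without DMSO replicate 3, 3 without TM replicate 2, 4 without TM replicate 3 and 5 without replicate 1 of either treatment. Calls over all tested genes also dropped in WT, to between 1553 and 2380 with single libraries left out, against 2453. With the replicate number as a block within each genotype 8 of the 9 genes passed in WT (28.2% of all tested genes in that fit), 8 in ire1b (38.1%) and 6 in ire1a1b (30.7%). The genes added by the block were CASP5 and GPAT5 in WT, CASP5, MYB36 and GPAT5 in ire1b, and CASP5 and MYB36 in ire1a1b.

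**Figure D1:**
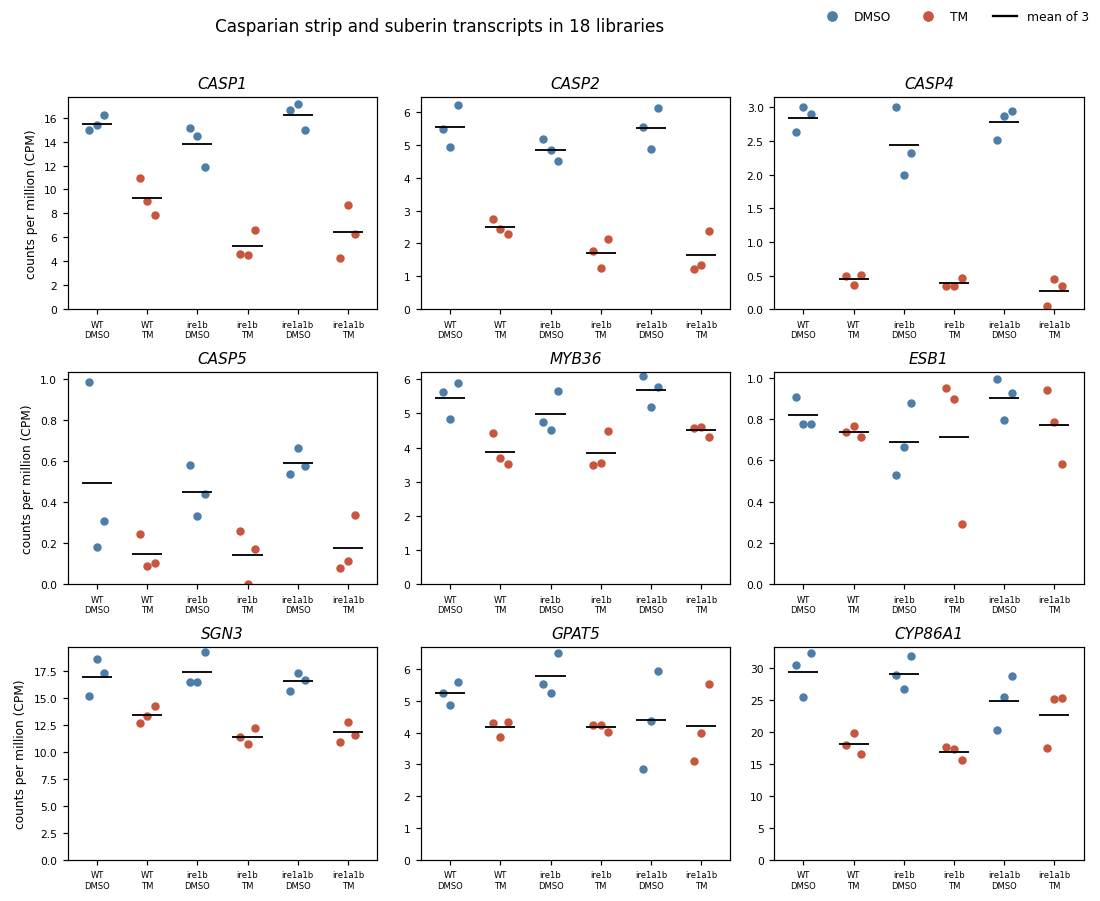
Level of each of the 9 genes in every library, in CPM (y axis starting at 0), for the 6 groups (x axis); points are libraries and bars are the mean of 3. CASP1, CASP2, CASP4 and SGN3 are lower in all 9 TM libraries than in any of the 9 DMSO libraries. The share of all tested genes separated in this way is not given here.

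CASP1 was the most abundant of the 4 CASP genes per length, at 17.2 ± 0.677 CPM per kb of exon (SD, n = 3) in WT with DMSO. CASP2 stood at 5.56 ± 0.649, CASP4 at 2.8 ± 0.191 and CASP5 at 0.552 ± 0.484 CPM per kb. The 4 genes summed to 26.1 ± 1.16 CPM per kb in WT with DMSO and 13.4 ± 2.06 with TM. In ire1b the sum was 23.1 ± 2.51 with DMSO and 8.07 ± 1.86 with TM, and in ire1a1b 26.9 ± 0.549 and 9.22 ± 2.8. The sum of the 4 genes with TM lay below that with DMSO in every library of each genotype.

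In WT, CASP1 stood at 15, 15.4 and 16.2 CPM with DMSO and at 11, 9.08 and 7.9 CPM with TM. In ire1b, CASP1 stood at 15.1, 14.5 and 11.9 CPM with DMSO and at 4.58, 4.5 and 6.63 CPM with TM. In ire1a1b, CASP1 stood at 16.6, 17.1 and 15 CPM with DMSO and at 4.29, 8.7 and 6.26 CPM with TM. All 9 TM libraries were below all 9 DMSO libraries, and the WT TM libraries were the highest of the TM libraries except that ire1a1b replicate 2, at 8.7, lay among them. CASP1 fell by log2 0.73 ± 0.2 in WT (1.66-fold, adjusted p = 0.023), 1.41 ± 0.21 in ire1b (2.66-fold, 0.00013) and 1.36 ± 0.2 in ire1a1b (2.56-fold, 0.00021). The WT call was lost without DMSO replicate 2 (adjusted p = 0.057), DMSO replicate 3 (0.069), TM replicate 2 (0.083) or TM replicate 3 (0.11).

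CASP2, at 5.47, 4.92 and 6.21 CPM with DMSO in WT, stood at 2.75, 2.44 and 2.29 with TM. Its ire1b libraries held 5.17, 4.84 and 4.51 CPM with DMSO and 1.77, 1.25 and 2.15 with TM. Its ire1a1b libraries held 5.54, 4.87 and 6.12 CPM with DMSO and 1.22, 1.35 and 2.38 with TM. The DMSO and TM libraries did not overlap, and the TM libraries of WT were all above those of ire1b, while ire1a1b TM replicate 3, at 2.38, lay among those of WT. The fall was log2 -1.15 ± 0.2 in WT (2.21-fold, edgeR adjusted p = 0.0016), -1.5 ± 0.22 in ire1b (2.82-fold, 0.00011) and -1.74 ± 0.22 in ire1a1b (3.33-fold, 3.2e-05).

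CASP4 had the largest fold change of the 9 genes in WT, ire1b and ire1a1b alike. Its WT libraries held 2.63, 3.01 and 2.9 CPM with DMSO and 0.491, 0.361 and 0.51 with TM, from 186 and 28 counts in all. Its ire1b libraries held 3.01, 1.99 and 2.32 CPM with DMSO and 0.346, 0.35 and 0.465 with TM, from 136 and 23 counts. Its ire1a1b libraries held 2.52, 2.88 and 2.95 CPM with DMSO and 0.0408, 0.449 and 0.34 with TM, from 177 and 16 counts. The highest TM library lay far below the lowest DMSO library, and the low ire1a1b TM replicate 1 held 1 count. The fall was log2 -2.64 ± 0.32 in WT (6.23-fold, edgeR adjusted p = 3.9e-05), -2.65 ± 0.34 in ire1b (6.29-fold, 2.9e-05) and -3.4 ± 0.35 in ire1a1b (10.5-fold, 4.5e-06). CASP4's share of the summed level of the 4 genes per length went from 10.8% ± 0.921 (SD, n = 3) with DMSO to 3.38% ± 0.819 with TM in WT, from 10.4% ± 1.7 to 4.77% ± 0.408 in ire1b and from 10.2% ± 0.93 to 2.61% ± 1.71 in ire1a1b. CASP1's share was 65.8% ± 1.69 with DMSO and 76.7% ± 1.5 with TM in WT, 66.3% ± 2.43 and 71.9% ± 3.97 in ire1b, and 66.7% ± 3.16 and 76.7% ± 7.21 in ire1a1b. Their coding sequences were 61.7% to 80.6% identical in pairwise alignment, CASP2 and CASP4 the most alike, and the longest run of bases shared by the transcripts of CASP2 and CASP4 was 20 bases.

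CASP5 was near the limit of detection, with 34 counts over the 3 WT DMSO libraries and 9 over the WT TM libraries. Of the WT DMSO libraries replicate 1 held 0.987 CPM and the other two 0.182 and 0.311, against 0.0903 to 0.246 CPM with TM. In ire1b it ranged from 0.332 to 0.58 CPM with DMSO and from 0.0 (0 counts, which allows up to 3) to 0.259 with TM, and in ire1a1b from 0.538 to 0.664 and from 0.0817 to 0.34. The groups overlapped in WT and not in the other two genotypes. The log2 differences of -1.77 ± 0.73 in WT, -1.55 ± 0.77 in ire1b and -1.72 ± 0.69 in ire1a1b did not pass (edgeR adjusted p = 0.14, 0.18 and 0.11). With the replicate number as a block within each genotype all 3 passed (0.029, 0.037 and 0.015), and with a single block over all genotypes ire1a1b reached 0.05.

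**Figure D2:**
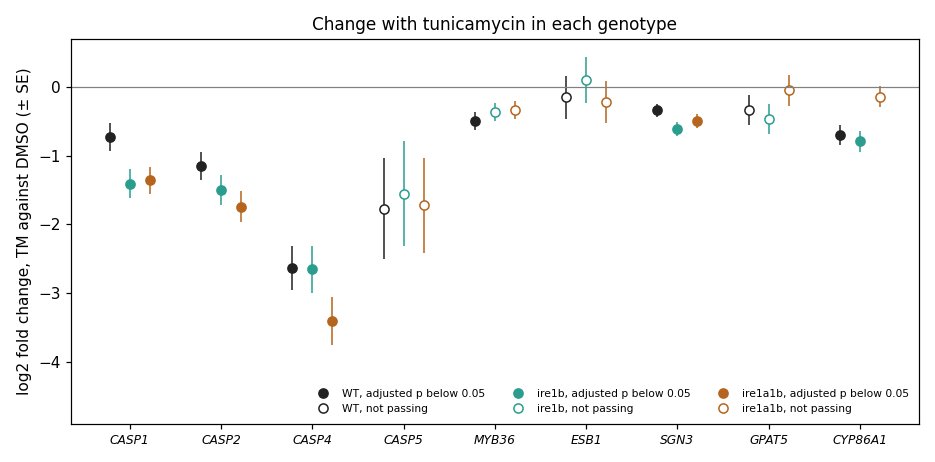
Log2 fold change of TM against DMSO (y axis, ± SE of the edgeR fit) for each of the 9 genes (x axis) in WT, ire1b and ire1a1b; filled points passed an adjusted p of 0.05 and open points did not. CASP4 lies lowest, from -2.64 to -3.4, and CYP86A1 is filled in WT and ire1b and open in ire1a1b.

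MYB36, the transcription factor that activates the CASP genes, held in WT 5.63, 4.83 and 5.9 CPM with DMSO and 4.42, 3.7 and 3.52 with TM. In ire1b it held 4.75, 4.51 and 5.64 CPM with DMSO and 3.5, 3.55 and 4.48 with TM, and in ire1a1b 6.08, 5.18 and 5.77 with DMSO and 4.57, 4.6 and 4.32 with TM. Within each genotype the TM libraries were the lower ones, by a narrow gap in ire1b. The fall was log2 -0.49 ± 0.13 in WT (1.4-fold, edgeR adjusted p = 0.023), while -0.37 ± 0.13 in ire1b (0.06) and -0.34 ± 0.13 in ire1a1b (0.1) did not pass. The replicate block gave an adjusted p of 0.035 in ire1b, and the block within each genotype 0.028 in ire1b and 0.038 in ire1a1b. The WT call was lost in a fit of the WT libraries alone (0.14) and without DMSO replicate 1 (0.071), DMSO replicate 3 (0.087), TM replicate 2 (0.09) or TM replicate 3 (0.1), and the ire1b value passed without TM replicate 3 (0.026).

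SGN3, the receptor kinase, held 15.2, 18.6 and 17.3 CPM in WT with DMSO and 12.7, 13.3 and 14.3 with TM. In ire1b it held 16.5, 16.5 and 19.3 CPM with DMSO and 11.4, 10.7 and 12.2 with TM, and in ire1a1b 15.7, 17.3 and 16.7 with DMSO and 10.9, 12.8 and 11.6 with TM. No TM library reached the lowest DMSO library in any genotype. SGN3 fell by log2 0.34 ± 0.09 in WT (1.27-fold, edgeR adjusted p = 0.027), 0.61 ± 0.1 in ire1b (1.52-fold, 0.00023) and 0.5 ± 0.1 in ire1a1b (1.41-fold, 0.0019). The WT call was lost in a fit of the WT libraries alone (0.13) and without DMSO replicate 2 (0.12), DMSO replicate 3 (0.08), TM replicate 1 (0.086) or TM replicate 2 (0.088). Of its length 337 bases overlap AT4G20150 on the other strand, so reads there cannot be told apart without a strand setting.

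ESB1, a dirigent-like protein gene needed for an unbroken lignin ring, was low in all 18 libraries, at 0.291 to 0.993 CPM. In WT it held 0.905, 0.775 and 0.776 CPM with DMSO and 0.737, 0.768 and 0.714 with TM. The log2 differences were -0.15 ± 0.31 in WT, 0.1 ± 0.33 in ire1b and -0.22 ± 0.3 in ire1a1b (edgeR adjusted p = 0.84, 0.87 and 0.74). AT2G28671, on the other strand, covers 1772 bases or 84.6% of ESB1 and itself held 1 to 10 counts per library, so the level of ESB1 is uncertain.

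Of the suberin enzymes, CYP86A1 was the more abundant, at 15.8 ± 1.93 CPM per kb in WT with DMSO against 2.62 ± 0.178 for GPAT5. In WT, CYP86A1 held 30.5, 25.5 and 32.5 CPM with DMSO and 18, 19.8 and 16.6 with TM. In ire1b it held 28.9, 26.7 and 31.9 CPM with DMSO and 17.6, 17.4 and 15.6 with TM. In ire1a1b it held 20.4, 25.5 and 28.8 CPM with DMSO and 17.5, 25.2 and 25.3 with TM. The treatments were separate in WT and ire1b and overlapped in ire1a1b, where replicate 1 was the lowest library of both. CYP86A1 fell by log2 0.7 ± 0.15 in WT (1.62-fold, edgeR adjusted p = 0.0056) and 0.79 ± 0.15 in ire1b (1.72-fold, 0.0012), and the value of -0.14 ± 0.15 in ire1a1b did not pass (0.65).

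GPAT5 held 5.26, 4.88 and 5.59 CPM in WT with DMSO and 4.32, 3.88 and 4.33 with TM. In ire1b it held 5.54, 5.27 and 6.52 CPM with DMSO and 4.24, 4.25 and 4.01 with TM. In ire1a1b it held 2.85, 4.38 and 5.95 CPM with DMSO and 3.1, 3.98 and 5.53 with TM. The TM libraries were lower in WT and ire1b without overlap, while in ire1a1b each TM library lay close to the DMSO library of the same number. The log2 differences were -0.33 ± 0.22 in WT, -0.47 ± 0.22 in ire1b and -0.05 ± 0.22 in ire1a1b (edgeR adjusted p = 0.41, 0.16 and 0.93). With the block within each genotype GPAT5 passed in WT (0.049) and in ire1b (0.0066), and in ire1b it also passed in a fit of the ire1b libraries alone (0.016) and once the 4 replicate 1 libraries that stood apart were left out (0.033).

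The size of the TM change was compared between genotypes for each of the 9 genes, and none passed in the fit without a replicate block. The comparison of ire1b with WT called 0 of 9 genes (4.15% of all tested genes), that of ire1a1b with WT 0 of 9 (6.12%) and that of ire1a1b with ire1b 0 of 9 (0.776%). At an unadjusted p below 0.05 they held 1 gene (CASP1), 2 genes (CASP1 and CYP86A1) and 1 gene (CYP86A1), and DESeq2 called 0 in each. The share of all tested genes at the unadjusted threshold is not given here, so these counts cannot be set against it. CASP1 fell more in ire1b than in WT by log2 -0.68 ± 0.29 and more in ire1a1b than in WT by -0.62 ± 0.28, and neither difference passed (edgeR adjusted p = 0.29 and 0.27). The CYP86A1 change in ire1a1b was 0.56 ± 0.21 above that in WT and 0.65 ± 0.21 above that in ire1b (adjusted p = 0.15 and 0.31). These CYP86A1 differences passed with the block within each genotype (0.021 and 0.04), and the one against WT also without ire1a1b TM replicate 1 (0.72 ± 0.18, 0.028). All 3 comparisons between genotypes share groups with one another.

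With DMSO alone the genotypes did not differ in any of the 9 genes past the threshold. The log2 differences ranged from -0.27 to 0.14 for ire1b against WT, from -0.27 to 0.22 for ire1a1b against WT and from -0.41 to 0.4 for ire1a1b against ire1b. The calls were 0 of 9 in each, where 0.0291%, 0.131% and 0.16% of all tested genes passed, with 0 of 9 at an unadjusted p below 0.05 and 0 by DESeq2. Those shares are for the adjusted threshold, and none is given here for the unadjusted one. For each gene the DMSO libraries of any pair of genotypes overlapped.

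Of the other genes of the Casparian strip pathway 18 were tested, in a list drawn up with results of these data known. In WT 5 fell, none rose and 13 did not pass (median log2 -0.4), where 5.77% of all tested genes fell. In ire1b 12 fell and 1 rose (median -0.57; 11.6% of all tested genes fell), and in ire1a1b 10 fell and 2 rose (median -0.55; 6.59% fell). The WT count was 3 without DMSO replicate 3, TM replicate 2 or TM replicate 3, and 8 with the block within each genotype (28.2% of all tested genes passed in that fit). Over all tested genes, leaving out single libraries gave 1553 to 2380 calls in WT, against 2453. AT1G61590, a protein kinase gene, held 17.7, 13.3 and 15.5 CPM in WT with DMSO and 11.2, 8.76 and 8.16 with TM, and in ire1b 14.8, 14.2 and 17.8 with DMSO and 3.63, 4.75 and 4.24 with TM. It fell in WT (log2 -0.72 ± 0.14), ire1b (-1.89 ± 0.15) and ire1a1b (-1.21 ± 0.15), and fell more in ire1b than in WT (-1.17 ± 0.21, edgeR adjusted p = 0.0032). PER64, a peroxidase that polymerises the strip's lignin, held 15, 14.6 and 14.3 CPM in WT with DMSO and 11.9, 9.03 and 8.47 with TM. Its change of -0.58 ± 0.24 in WT did not pass (0.15), and it fell by 1.63 ± 0.26 in ire1b (0.00025) and 1.57 ± 0.26 in ire1a1b (0.00048). The PER64 differences from WT did not pass in ire1b (-1.05 ± 0.35, edgeR adjusted p = 0.14) or ire1a1b (-0.99 ± 0.35, 0.13).

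The peroxidase genes of the list did not all behave alike. PER72 fell in WT (log2 -1.02 ± 0.2, edgeR adjusted p = 0.0031), and RCI3 fell in ire1b (-1.85 ± 0.19) and ire1a1b (-1.34 ± 0.19) and more in ire1b than in WT (difference -1.41 ± 0.26, 0.0042). AT1G44970 fell in ire1b (-1.89 ± 0.32) and ire1a1b (-2.57 ± 0.34), and more in ire1a1b than in WT (-1.92 ± 0.45, 0.018). AT4G11290 fell in WT (-0.76 ± 0.13) and ire1b (-0.45 ± 0.13), and its change in ire1a1b was 0.94 ± 0.18 above that in WT (0.005). All 4 dirigent-like genes (AT2G39430, AT3G24020, AT4G13580 and AT3G55230) fell in ire1b, by 0.75 ± 0.23 to 1.94 ± 0.2, and all 4 in ire1a1b, by 1.05 ± 0.23 to 1.35 ± 0.19. In WT AT2G39430 and AT3G55230 fell (both -0.65). The risers were EXO70A1, an exocyst subunit that helps to place the CASP domain, in ire1b and ire1a1b (0.29 ± 0.07 in each), and GSO2, a receptor kinase related to SGN3, in ire1a1b (1.03 ± 0.21, 0.0027).

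Of 21 other suberin genes 20 were tested. In WT 1 fell (KCS20, a fatty acid elongase gene), in ire1b 6 fell and 1 rose, and in ire1a1b 1 fell and 2 rose (median log2 -0.3, -0.3 and 0.02). Of all tested genes 11.9%, 22.5% and 14.9% passed in WT, ire1b and ire1a1b. The counts of this list were below that share in WT, near it in ire1a1b and above it in ire1b, where 11.6% of all tested genes fell. The ire1b count of 7 was 4 without DMSO replicate 2, DMSO replicate 3 or TM replicate 1. It was 11 with the block within each genotype, where 38.1% of all tested genes passed. The WT count, out of 20 genes, was 4 with the replicate block, where 4142 of all 20615 tested genes passed. It was 8 with the block within each genotype, where 28.2% of all tested genes passed. KCS20 held 138.1, 143.9 and 135.8 CPM in WT with DMSO and 105.9, 98.0 and 97.9 with TM, and in ire1a1b 140.4, 166.3 and 133.3 with DMSO and 145.2, 153.5 and 137.6 with TM. Its WT and ire1b libraries were lower with TM, and its ire1a1b groups overlapped. KCS20 fell by log2 0.47 ± 0.09 in WT and 0.44 ± 0.09 in ire1b, and its change in ire1a1b was 0.46 ± 0.12 above that in WT (edgeR adjusted p = 0.041). ABCG1, a transporter of suberin building blocks, rose in ire1b (0.73 ± 0.15, 0.0023) and ire1a1b (1.02 ± 0.15, 0.00021), and more in ire1a1b than in WT (0.85 ± 0.21, 0.026). The other ABCG genes of the list did not rise: ABCG6 fell in ire1b (-0.84 ± 0.27, 0.036), and ABCG2 and ABCG20 passed in no genotype. MYB39, an activator of suberin genes, rose in ire1a1b from 0.136 ± 0.151 CPM, near the limit of detection, to 1.11 ± 0.596 CPM (log2 2.91 ± 0.66, 0.0062). No other MYB gene of the list passed in ire1a1b, and MYB9 (-0.77 ± 0.21, 0.016) and MYB92 (-0.36 ± 0.09, 0.0099) fell in ire1b.

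Genes of monolignol synthesis, which makes the building blocks of lignin, fell or did not pass. In WT 3 of 12 fell (PAL2, C4H and C3H1), in ire1b 10 of 12 and in ire1a1b 5 of 12, and none rose (median log2 -0.42, -0.66 and -0.44), where 5.77%, 11.6% and 6.59% of all tested genes fell. CAD4, which makes the monolignol alcohols, did not change past the threshold in WT (0.02 ± 0.07, edgeR adjusted p = 0.91), fell in ire1b (-0.66 ± 0.08) and ire1a1b (-0.95 ± 0.08), and differed from WT in both (-0.69 ± 0.11, 0.00097, and -0.98 ± 0.11, 2.5e-05). The other CAD gene of the list, CAD5, passed in no genotype (0.01 ± 0.17 in WT, -0.11 ± 0.17 in ire1b and -0.05 ± 0.17 in ire1a1b).

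Regulators of endodermal identity and markers of other cell types were measured in the same libraries. Whether the RNA of these regulators follows the amount of endodermis was not tested. Of 5 regulators of endodermal identity (SHR, SCR, SCL23, MGP and JKD) none passed in WT or ire1a1b, and SCR fell in ire1b (log2 -0.25 ± 0.08, edgeR adjusted p = 0.031). Their medians were 0.01, -0.16 and -0.09, and their summed level ranged from 99.6 to 109.6 CPM with DMSO and from 98.7 to 102.1 with TM in WT, from 96.7 to 102.7 and 84.6 to 93.0 in ire1b, and from 102.2 to 107.5 and 90.6 to 102.3 in ire1a1b. Of all tested genes 5.77%, 11.6% and 6.59% fell. Root hair genes, which belong to the epidermis, fell in 5 of 7 in WT, 7 of 7 in ire1b and 6 of 7 in ire1a1b (medians -0.85, -1.36 and -1.2). Their summed level ranged from 73.8 to 85.2 CPM with DMSO and from 36.9 to 48.1 with TM in WT, from 89.7 to 95.4 and 33.3 to 36.5 in ire1b, and from 85.8 to 95.6 and 33.9 to 39.9 in ire1a1b. Of 8 stele and xylem genes 3, 4 and 2 fell (medians -0.37, -0.35 and -0.21), and of 6 root tip genes 0, 4 and 3 (medians -0.17, -0.87 and -0.78), in WT, ire1b and ire1a1b. The summed stele and xylem level ranged from 430.1 to 561.9 CPM over the 9 DMSO libraries and from 334.7 to 447.7 over the 9 TM libraries. The root tip level ranged from 6.33 to 7.91 CPM over the 9 DMSO libraries. With TM the root tip level ranged from 5.7 to 7.29 in WT, from 3.26 to 4.35 in ire1b and from 3.31 to 3.98 in ire1a1b. Of 5 photosynthesis genes of green tissue none passed in any genotype (medians -0.2, 0.0 and -0.09; summed level 4134.7 to 6327.9 CPM with DMSO and 4093.1 to 6257.0 with TM). None of these genes was at 0 in any group, and the part of these cell types in the changes of the 9 genes was not tested.

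**Figure D3:**
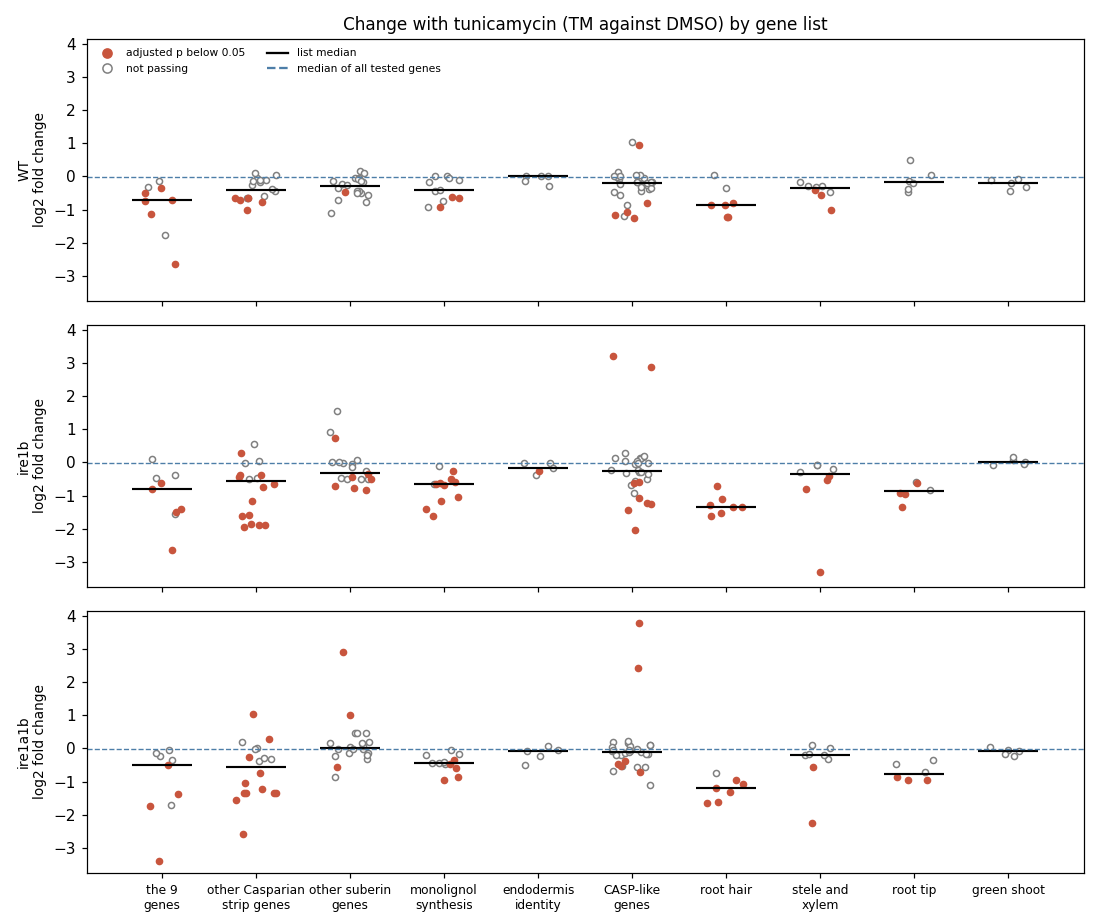
Log2 fold change of TM against DMSO (y axis) of every tested gene in each list (x axis) in WT, ire1b and ire1a1b (panels from top to bottom); filled points passed an adjusted p of 0.05, bars are list medians and the dashed line is the median of all tested genes. The 9 genes have medians of -0.7, -0.79 and -0.5, root hair genes of -0.85, -1.36 and -1.2, and endodermal regulators of 0.01, -0.16 and -0.09.

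The genes most like these CASP genes in their course over the 18 libraries were sought among 17879 genes by Pearson's r with the mean standardised log2 CPM of CASP1, CASP2, CASP4 and CASP5. These points share the 6 groups and the treatment, so r is given as a description. The 8 closest were LAC3, a laccase (r = 0.972), the kinase gene AT5G65530 (0.959), the dirigent-like gene AT2G39430 (0.942), SHV2 (0.941), RHS8 (0.939), AT4G25790 (0.936), AGP3 (0.932) and the galactose mutarotase-like gene AT3G01260 (0.93). AT2G39430 belongs to the Casparian strip list, SHV2 is the root hair marker COBL9, and RHS8 is named for its root hair expression. LAC3 changed by log2 -1.25 in WT, -1.64 in ire1b and -1.26 in ire1a1b. Closest to the mean of GPAT5 and CYP86A1 were AT5G44550 (0.928), AT4G38080 (0.9), AT4G20390 (0.896), AT2G23540 (0.895) and AT1G10140 (0.892). AT5G44550 and AT4G20390 encode UPF0497 proteins, the family of the CASPs: AT5G44550 changed by log2 -1.06, -1.21 and -0.53 and AT4G20390 by -1.27, -1.45 and -0.55 in WT, ire1b and ire1a1b.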

How the data were processed

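PolyA RNA-seq of whole Arabidopsis seedlings was analysed in 18 libraries. Reads were aligned to TAIR10 (STAR 2.4.0) and assigned to genes (HTSeq 0.6.0), per the submitters' processing notes. The values the authors deposited are raw counts per gene. The notes also name DESeq2, without a version. The annotation version, strand setting and counting mode are not given in the sources used here. Overlapping and antisense genes are therefore uncertain. The HTSeq summary entries were left out (1.202% to 1.419% of all counts in no feature, 1.094% to 1.231% ambiguous, 3.331% to 3.713% not uniquely aligned). Of 27416 identifiers 26719 matched RefSeq's TAIR10.1, which supplied names, exon lengths and promoters. Replicates were numbered by the sample titles, because another replicate label conflicted with them.

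Counts were tested with edgeR 4.0.16 in R 4.3.3 (filterByExpr, TMM scaling, robust quasi-likelihood fit of 6 group means over 18 libraries), in 9 comparisons, with p-values adjusted by Benjamini-Hochberg over the 20615 genes tested. A gene is said to rise or fall at an adjusted p below 0.05. Values are CPM (counts scaled to the library total) on TMM-scaled library sizes, with mean ± SD over 3 libraries, and log2 changes carry the fit's SE. Libraries held 16347549 to 24848852 counts in genes, and the limit given for a count of 0 covers counting error only. Replicate libraries differed beyond sampling noise (chi-square per degree of freedom 2.666 to 55.71). The fit was tested on simulated data. Same-numbered libraries deviated together in the TM comparison of WT (r = 0.5 to 0.69), ire1b (0.15 to 0.32) and ire1a1b (0.42 to 0.72), in the comparison of the TM changes of ire1a1b and WT (0.34 to 0.84) and in ire1a1b against WT with DMSO (0.58 to 0.84), so the numbers were taken to pair them there. In the other 4 comparisons the lowest r was 0.01 to 0.07, under the limit of 0.1. The main fit had no replicate block, so its p-values did not use this pairing. Only the alternative fits with a block took it into account.

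The alternatives were DESeq2 1.42.0, RLE scaling, the low-count filter removed or raised to 1 CPM in 3 libraries, a replicate block, a block within each genotype, only the groups compared, leaving out each library, and leaving out the replicate 1 libraries of WT and ire1a1b; leaving out replicate 1 of every group was added after seeing the data. The 10 genes that the rule gives and all gene lists were chosen with earlier results of these data known. Of the 10 genes 1 is not reported here, and counts, sums, medians and mean profiles are over the other 9. Named genes were these 9 genes, genes of the lists, CASP-like genes, 4 check genes, and for likeness the 8 and 5 genes of highest r with mean log2 CPM of at least 1.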

Additional observations from a re-analysis of the deposited data

How the results depend on the processing

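DESeq2, RLE scaling and no filter changed no call of the 9 genes, and neither did the stricter filter, under which CASP5 and ESB1 gave no value. The WT count of genes called with TM ranged from 3 to 5 when single libraries were left out, against 6, that for the difference of ire1a1b and WT from 0 to 1, that of the other Casparian strip genes in WT from 3 to 5 and that of the other suberin genes in ire1b from 4 to 5. Over all genes the same fits gave 1553 to 2380 calls in WT (2453 with all libraries) and 3600 to 3811 in ire1b (4639). For the difference of ire1a1b and WT they gave 981 to 1351 (1262). With a replicate block within each genotype 8 of the 9 genes passed with TM in ire1b against 5, 1 passed for ire1a1b against WT and 1 for ire1a1b against ire1b (both CYP86A1), 8 other Casparian strip genes passed in WT against 5, 8 other suberin genes in WT against 1 and 11 in ire1b against 7, and a single replicate block gave 4 other suberin genes in WT. The block changed no calls of the 9 genes beyond those given with the results. Over all genes the single block gave 4142 calls with TM in WT and the block within each genotype 5811, against 2453. In fits of the groups compared alone, 3 other Casparian strip genes and 2 other suberin genes passed in WT, 11 other suberin genes in ire1b and 1 in ire1a1b (3 in the fit of all groups). Over all genes those fits called 848 in WT and 1567 in ire1a1b, against 2453 and 3064 in the fit of all groups. Without the 4 replicate 1 libraries that stood apart (WT and ire1a1b), or without replicate 1 of every group, 4 other suberin genes passed in WT, and the latter gave 8 other Casparian strip genes. Calls over all genes are not given here for WT without replicate 1, or for ire1b in the fit of its groups alone. The cause of these shifts was not tested.

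Values whose sign turned had all missed the threshold. The CASP5 difference of ire1a1b and WT was -0.05 with the replicate block, -0.04 with the block within genotypes, -0.11 without the 4 replicate 1 libraries and -0.12 without replicate 1 of every group. Under the same last settings, in that order, the TM difference of ire1b and WT was 0.11 and 0.37 for CASP4 and -0.26 and -0.86 for CASP5, that of ire1a1b and ire1b was 0.15 and 0.74 for CASP5, and the DMSO difference of ire1b and WT was 0.87 and 0.62 for CASP5, -0.05 and -0.02 for SGN3 and 0.01 and 0.01 for CYP86A1. Without replicate 1 of every group the ESB1 change with TM was -0.31 in ire1b, and its difference from WT was -0.24. Leaving out 1 library turned the sign of 21 values, none of which passed the test under any of those settings, and their log2 ranges follow. With TM they were, for the change with TM in ire1b ESB1 (-0.16 to 0.44); for that in ire1a1b CYP86A1 (-0.26 to 0.02), GPAT5 (-0.31 to 0.22). Between genotypes they were, for the TM change of ire1b minus that of WT CASP4 (-0.16 to 0.17), CASP5 (-0.83 to 0.79), CYP86A1 (-0.16 to 0.01), ESB1 (-0.01 to 0.59); for ire1a1b minus WT CASP5 (-1.01 to 0.62), ESB1 (-0.26 to 0.09); for ire1a1b minus ire1b CASP1 (-0.22 to 0.29), CASP5 (-1.02 to 0.66), MYB36 (-0.06 to 0.15). They were, with DMSO, for ire1b minus WT CASP5 (-0.58 to 0.86), CYP86A1 (-0.11 to 0.06), SGN3 (-0.05 to 0.1); for ire1a1b minus WT CASP2 (-0.09 to 0.08), CASP4 (-0.08 to 0.03), CASP5 (-0.18 to 1.28), MYB36 (-0.02 to 0.12), SGN3 (-0.11 to 0.03); for ire1a1b minus ire1b SGN3 (-0.11 to 0.01).

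Over all genes the replicate block gave 4142 calls with TM in WT (2453 without it), 4844 in ire1a1b (3064), 1567 for ire1b against WT (855), 2341 for ire1a1b against WT (1262) and 316 for ire1a1b against ire1b (160). The block within genotypes gave 5811, 7861 (4639 in ire1b without it), 6337, 2467, 3486 and 622. Fits of the compared groups alone gave 848 in WT and 1567 in ire1a1b with TM, and 0, 1 and 7 against 6, 27 and 33 for the DMSO comparisons. DESeq2 gave 271 for ire1a1b against ire1b and 11 for ire1b against WT with DMSO. Leaving out the 4 replicate 1 libraries gave 1295 for ire1b against WT and 254 for ire1a1b against ire1b. Without replicate 1 of every group the DMSO comparisons of ire1b and ire1a1b with WT gave 3 and 17. Leaving out WT TM replicate 2 or 3 gave 1553 or 1606 in WT, and single libraries left 0 to 6 for ire1b against WT with DMSO. CASP5 and ESB1 had the lowest counts of the 9 genes over the 18 libraries, which limits their precision. With TM, CASP4 held fewer counts than ESB1 (28, 23 and 16 against 46, 45 and 49 in WT, ire1b and ire1a1b). The CASP4 change in ire1a1b ranged from log2 -3.91 to -2.81 when single libraries were left out.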

Other observations

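CASP-like genes, the other members of the UPF0497 family, were counted in the same way. Of 35 such genes 30 were tested, and 1 rose and 4 fell in WT, 2 rose and 7 fell in ire1b and 2 rose and 4 fell in ire1a1b (edgeR quasi-likelihood test, adjusted p below 0.05; median log2 -0.19, -0.25 and -0.11). Of all tested genes 11.9%, 22.5% and 14.9% passed in either direction, 5.77%, 11.6% and 6.59% fell, and 6.13%, 10.9% and 8.27% rose. The share of the family that fell was above that of all tested genes in each genotype, and the share that rose was below it. These shares rest on few genes. CASPL4A2 (AT5G62820) held 2.1, 1.73 and 2.43 CPM in WT with DMSO and 3.93, 4.15 and 4.08 with TM. In ire1b it held 2.48, 2.94 and 2.63 CPM with DMSO and 22.6, 19.1 and 17.6 with TM, and in ire1a1b 2.44, 2.39 and 2.54 with DMSO and 13.8, 12.8 and 12.7 with TM. Its TM libraries were above the DMSO libraries in every genotype, and those of WT were the lowest of them. CASPL4A2 rose by log2 0.96 ± 0.13 in WT (adjusted p = 0.00012), 2.87 ± 0.12 in ire1b (5.4e-11) and 2.42 ± 0.12 in ire1a1b (8.8e-10), and rose more than in WT in ire1b (by 1.91 ± 0.18, 8e-06) and ire1a1b (by 1.46 ± 0.18, 7.9e-05).

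CASPL4A4 (AT4G11655) rose in ire1b (log2 3.2 ± 0.28, edgeR adjusted p = 4.3e-07) and ire1a1b (3.79 ± 0.25, 2.4e-08), and its change of 1.04 ± 0.32 in WT did not pass (0.05). Its mean was 0.318 ± 0.0487 CPM (SD, n = 3) with DMSO and 0.669 ± 0.208 with TM in WT, 0.321 ± 0.133 and 3.0 ± 0.442 in ire1b, and 0.379 ± 0.138 and 5.45 ± 0.448 in ire1a1b. The change exceeded that of WT by log2 2.16 ± 0.46 in ire1b (edgeR adjusted p = 0.012) and 2.76 ± 0.44 in ire1a1b (0.0011). CASPL1B1 (AT5G44550), which lay closest to the suberin genes over the 18 libraries, held 16.0, 25 and 31.3 CPM in ire1a1b with DMSO and 12.4, 18.3 and 19.3 with TM, with replicate 1 the lowest of both, as for CYP86A1 and GPAT5.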
